A study of Homo sapiens with 12 samples.

Results

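The genes described here are the ligands TGFB1, TGFB2, TGFB3 and INHBA, the receptors TGFBR1, TGFBR2 and TGFBR3, and the feedback targets SMAD7 and SKIL. They were taken by gene symbol from the count tables, which gave 9 of 9 names among 23228 genes, and all 9 passed the filter on low counts that left 14571 genes for testing. Poly(A) RNA was sequenced from 1 established cell line, MDA-MB-468, which was derived from a basal, triple-negative breast cancer. Controls received the vehicle DMSO alone. The ipatasertib group received 5 µM of this inhibitor of the kinase AKT for 24 h, the tazemetostat group received 5 µM of this inhibitor of the histone methyltransferase EZH2 from day -5, and the combination group received both on the same schedule. Groups without tazemetostat had DMSO from day -5 instead. All 4 groups were in medium with 2% serum for the last 24 h, and each holds 3 libraries, named A, B and C. The description of the samples does not say that the 3 libraries of a group came from separate cultures, so p-values measure the spread between libraries, which can be technical.

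TGF-beta ligands are secreted in a latent form, bound to their own propeptide, and are released in the matrix by integrins, proteases and thrombospondin. The active dimer brings the type II receptor TGFBR2 and the type I kinase TGFBR1 together, with TGFBR3 (betaglycan) presenting the ligand. The kinase then phosphorylates SMAD2 and SMAD3, which enter the nucleus with SMAD4. INHBA encodes the subunit of activin A, which signals to the same SMAD proteins through ACVR2A or ACVR2B and ACVR1B. SMAD7 blocks the type I receptor and SKIL (SnoN) represses SMAD complexes on DNA, and both are induced by the pathway they restrain. In mammary epithelium TGF-beta is known for growth arrest and for promoting the epithelial-mesenchymal transition. MDA-MB-468 is known to carry a homozygous deletion of SMAD4.

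Totals of 22682755 to 28746965 counts in genes per library were found with DMSO and 12981622 to 17948209 with the combination, the shallowest group. Levels below are counts scaled to a common library size with edgeR's TMM factors (CPM), and 3 counts in a library make 0.106 to 0.228 CPM. Reads outside counted features took 18.2% to 21% of reads with DMSO, 22.3% to 24.3% with ipatasertib, 19.8% to 23% under tazemetostat and 24.3% to 26.2% under both drugs, and the part of this share in the results was not tested. Libraries B and C of a group resembled each other (chi-square over its degrees of freedom 2.41 to 3.61) more than library A resembled them (4.36 to 15.5), in all 4 groups. Values without the A libraries are given where they change a call. The summed level of 8 epithelial and basal markers (EPCAM, CDH1, EGFR and 5 keratins) was 6600 to 7100 CPM with DMSO and 7230 to 7330 with ipatasertib. It was 5820 to 5960 CPM under tazemetostat and 5720 to 6370 under both drugs. Its members moved in different directions: EGFR went from a mean of 1060 CPM with DMSO to 2240 under both drugs, and KRT5 from 1720 to 443. PGR had no read in the DMSO, ipatasertib and combination groups. In the order DMSO, ipatasertib, tazemetostat, combination, 8 fibroblast markers summed to 10.8 to 12.5, 6.19 to 6.78, 16.7 to 20 and 11 to 13.4 CPM. Of these COL1A1, also a gene that TGF-beta raises, made up 10.7, 5.16, 14.4 and 8.28 CPM, and DCN, LUM, THY1 and COL1A2 had no read with DMSO. In the same order, 8 leukocyte markers summed to 80.1 to 86.3, 78 to 100, 57.1 to 64.6 and 62.4 to 72.5 CPM. The 8 markers of endothelium and platelets summed to 21.6 to 22, 31.9 to 32.6, 14.8 to 17.6 and 22.9 to 24.7 CPM, with PF4 at no read. The part of these markers in the results was not tested.

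Each inhibitor changed some of the genes, TGFB2 in opposite directions, and the pair gave the highest levels of INHBA and TGFBR3. A gene is said to have risen or fallen where edgeR's quasi-likelihood test, adjusted over the 14571 genes, gave p under 0.05. With ipatasertib 4 of 9 rose (TGFB2, TGFBR2, TGFBR3 and SMAD7) and 1 fell (TGFB3), where 24% of all genes rose and 23.1% fell, 47.1% in all. With tazemetostat 3 rose (TGFB1, INHBA and TGFBR3) and 1 fell (TGFB2), where 25.9% of all genes rose and 21.3% fell, 47.2% in all. With the combination 6 rose and 1 fell against DMSO, where 34.4% of all genes rose and 30% fell, 64.4% in all. The median log2 fold change of the 9 genes was 0.14 with ipatasertib, 0.06 under tazemetostat and 0.39 under both drugs, and that of all tested genes was 0, 0.01 and 0.03. Scaled to library totals instead of TMM, 67.9% of the genes called with tazemetostat were higher, against 54.9%, and the same members rose and fell with it. The 3 comparisons share their DMSO libraries. In bulk RNA, fewer cells with a transcript and less of it per cell cannot be told apart.

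**Figure D1:**
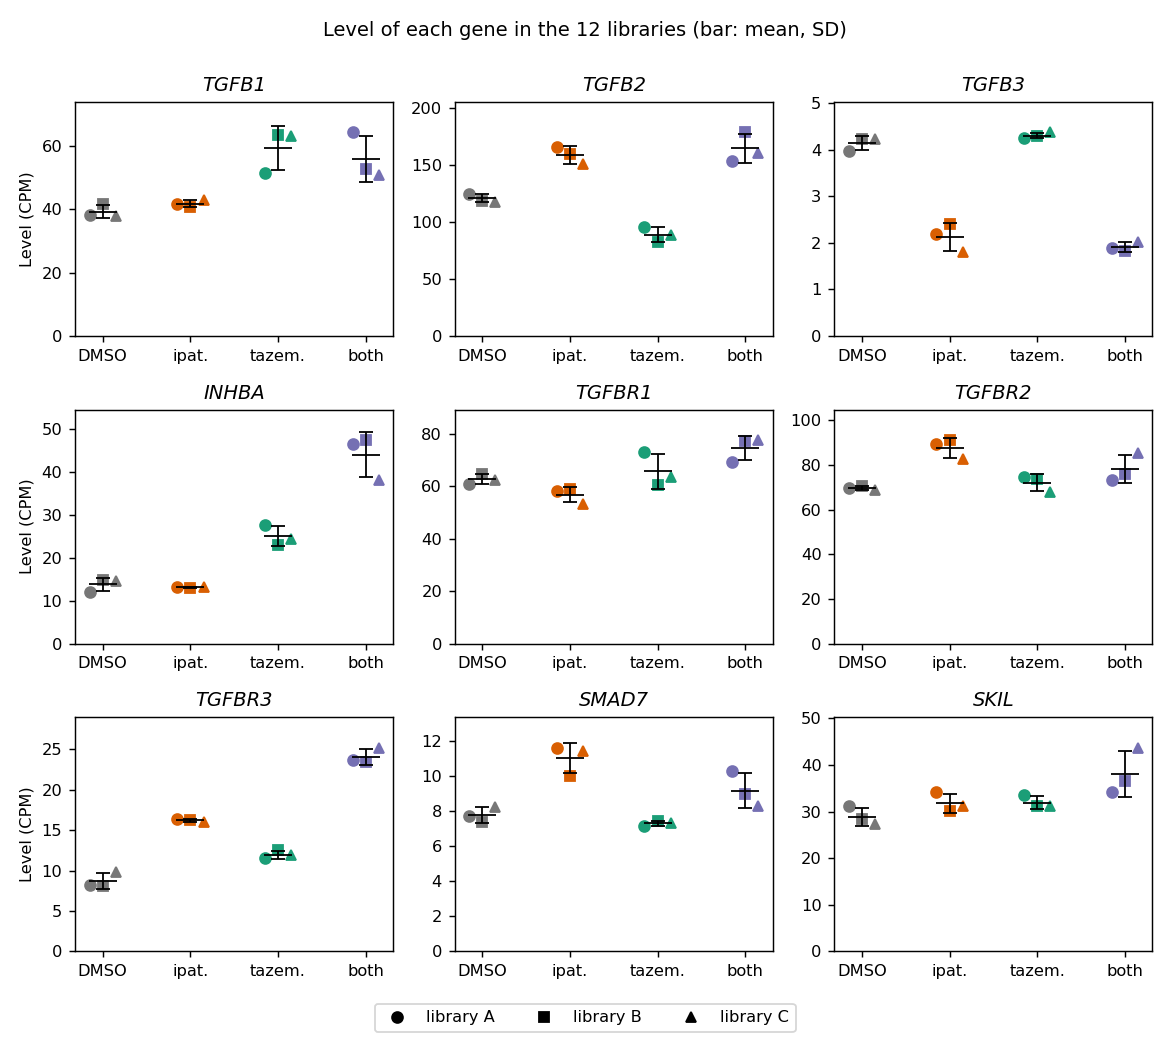
Level of each of the 9 genes (CPM, linear axes from 0) in the 12 libraries, grouped by treatment, with mean and SD as black bars and a symbol for each library letter (circle A, square B, triangle C). INHBA and TGFBR3 are highest in the combination, TGFB3 is low in the ipatasertib and combination groups, and TGFB2 is lowest with tazemetostat.

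**Figure D2:**
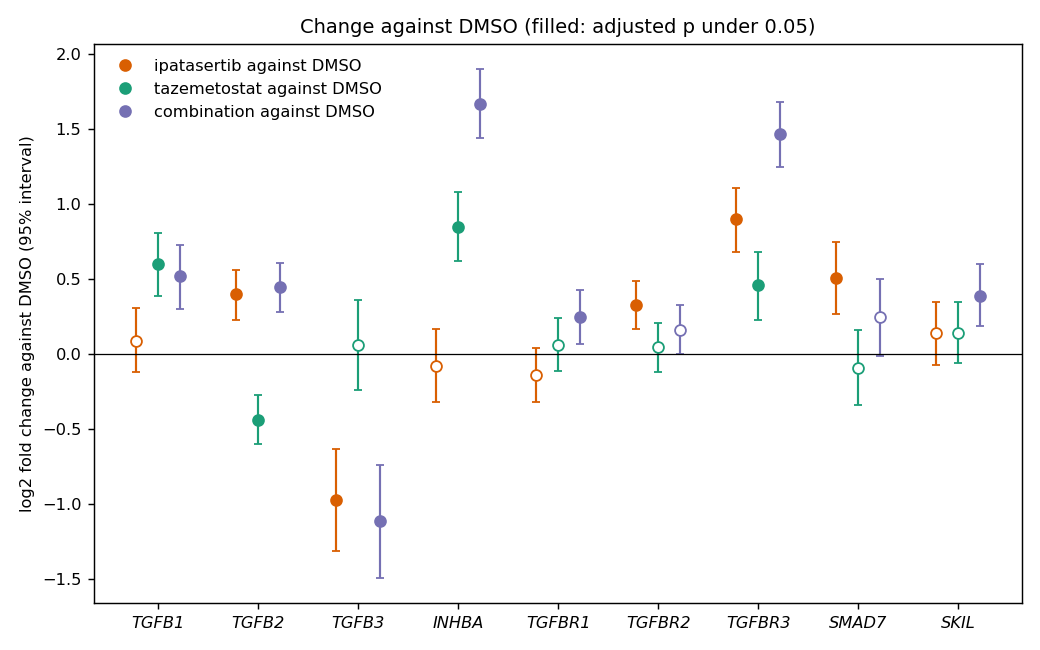
Log2 fold change of each gene against DMSO with its 95% interval, for ipatasertib, tazemetostat and both drugs. Filled points passed the adjusted threshold: 5 with ipatasertib, 4 under tazemetostat and 7 under both drugs.

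INHBA and TGFB2 are the members whose change with both drugs passed the test against additivity, so the sequence before each gene's start is shown. The sequences are RefSeq's, on GRCh38.p14, while the counts were made on hg19. They are the 250 bases upstream of the annotated start, 5′ to 3′ on the gene's strand, at chr1:218345086-218345335 (plus strand) for TGFB2 and chr7:41703091-41703340 (minus strand) for INHBA. Capitals mark the letters CAGAC, a short element that SMAD proteins can bind, searched on both strands.
TGFB2: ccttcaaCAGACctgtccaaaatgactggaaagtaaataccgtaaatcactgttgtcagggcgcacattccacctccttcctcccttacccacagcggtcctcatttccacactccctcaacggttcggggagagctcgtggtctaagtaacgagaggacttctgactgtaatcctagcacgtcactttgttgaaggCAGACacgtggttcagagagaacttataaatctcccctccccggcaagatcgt
INHBA: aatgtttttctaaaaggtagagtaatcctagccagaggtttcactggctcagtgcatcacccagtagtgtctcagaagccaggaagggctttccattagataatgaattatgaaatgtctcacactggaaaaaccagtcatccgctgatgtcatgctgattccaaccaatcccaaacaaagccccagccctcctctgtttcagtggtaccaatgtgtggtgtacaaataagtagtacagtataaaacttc

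The TGFB2 window held CAGAC at 2 places, 243 and 53 bases before the start, and the INHBA window held none. Taking the most upstream window of each member, 4 of 9 held CAGAC (TGFB2, TGFB3, SMAD7 and SKIL), where 37.9% of 27326 windows in all did. None of the 9 windows held the SMAD palindrome GTCTAGAC, the forkhead (FOXO) letters GTAAACA or the AP-1 letters TGANTCA, which stood in 0.183%, 3.02% and 6.57% of all windows. The cyclic AMP element TGACGTCA was in the SKIL window and in 1.75% of all windows. The INHBA window was poor in CpG, with an observed-to-expected ratio of 0.088 (percentile 9.73 of all windows), whereas the TGFB2 window had 0.719 (percentile 61.7). These matches describe letters only, and the windows of genes with several annotated starts (TGFB3, TGFBR1, TGFBR2 and SMAD7) cover 1 of them.

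TGFB2, which had the highest level per exon length of TGFB1, TGFB2, TGFB3 and INHBA with DMSO, moved in opposite directions with the 2 drugs. With DMSO it was at 23.9 CPM per kb, where INHBB, the activin B subunit gene outside these 4, was at 24.4. TGFB2 was at 125, 119 and 118 CPM in the DMSO libraries A, B and C, 166, 160 and 151 with ipatasertib, 95.8, 82.8 and 89.1 under tazemetostat and 154, 179 and 161 under both drugs. The tazemetostat libraries were all below and the ipatasertib and combination libraries all above those of DMSO. TGFB2 rose 1.32-fold with ipatasertib (log2 ratio 0.40 ± 0.071 SE, edgeR adjusted p = 9.44e-05) and fell by 0.44 ± 0.072 on the log2 scale with tazemetostat (edgeR adjusted p = 3.61e-05). The combination was 1.36-fold above DMSO (edgeR adjusted p = 1.19e-05) and 1.85-fold above tazemetostat alone (edgeR adjusted p = 2.07e-09). It did not differ from ipatasertib alone by the test (log2 difference 0.05, 95% interval -0.12 to 0.21).

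INHBA rose with tazemetostat and rose further when ipatasertib was added, although ipatasertib alone gave a level within the DMSO range. It was at 12.1, 14.8 and 14.6 CPM with DMSO, 13.1, 13 and 13.2 with ipatasertib, 27.6, 22.9 and 24.4 under tazemetostat and 46.5, 47.4 and 38 under both drugs. The 3 combination libraries were above all 9 others, and the tazemetostat libraries were above those of DMSO and ipatasertib. The rise was 1.8-fold with tazemetostat (log2 ratio 0.85 ± 0.10 SE, edgeR adjusted p = 5.27e-07) and 3.18-fold with the combination (1.67 ± 0.10 SE, edgeR adjusted p = 3.66e-12). Ipatasertib gave -0.08 (95% interval -0.32 to 0.17, edgeR adjusted p = 0.592). The combination was 1.77-fold above tazemetostat alone (edgeR adjusted p = 4.66e-07) and 3.36-fold above ipatasertib alone (edgeR adjusted p = 5.41e-12).

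TGFB1, the most widely expressed of the 3 TGF-beta genes in tissues, followed tazemetostat. It was at 38.1, 41.5 and 37.9 CPM with DMSO, 41.6, 40.7 and 42.9 with ipatasertib, 51.4, 63.3 and 63.2 under tazemetostat and 64.2, 52.5 and 50.9 under both drugs. All 6 libraries with tazemetostat were above all 6 without it. TGFB1 rose 1.52-fold with tazemetostat (log2 ratio 0.60 ± 0.090 SE, edgeR adjusted p = 1.15e-05) and 1.43-fold with the combination (edgeR adjusted p = 4.45e-05), and ipatasertib gave 0.09 (95% interval -0.12 to 0.31). Library A was the lowest of the tazemetostat group and the highest of the combination group. Without the A libraries TGFB1 was lower with the combination than with tazemetostat (log2 difference -0.29, edgeR adjusted p = 6e-04), against -0.09 with all libraries (edgeR adjusted p = 0.464).

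TGFB3, the least abundant of these ligands, fell wherever ipatasertib was present. It was at 3.97, 4.22 and 4.22 CPM with DMSO and 4.24, 4.29 and 4.37 with tazemetostat, against 2.18, 2.4 and 1.81 with ipatasertib and 1.88, 1.82 and 2.02 with the combination. The 6 libraries with ipatasertib were all below the 6 without. On the log2 scale TGFB3 fell by 0.97 ± 0.15 with ipatasertib (edgeR adjusted p = 1.29e-05) and by 1.11 ± 0.16 with the combination (edgeR adjusted p = 3.49e-06). Tazemetostat gave 0.06 (95% interval -0.24 to 0.36).

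Set against exon length (GENCODE 29, from another build than the counting, so the lengths are approximate), the 4 ligands changed their proportions. TGFB2 made up 55.7% to 59.2% of their summed level per kb in the DMSO libraries, 62.2% to 64.9% with ipatasertib, 37% to 43.8% under tazemetostat and 49.6% to 56.9% under both drugs. TGFB1 took 33% to 35.4% with DMSO and 42.9% to 51.7% with tazemetostat, where it was above TGFB2 in libraries B and C. INHBA took 4.41% to 5.43% with DMSO and 10.2% to 11.6% with the combination, and TGFB3 took 3.43% to 3.72% with DMSO and 1.05% to 1.28% with the combination. These shares are a description, with no test, and leave out INHBB, at 24.4 CPM per kb with DMSO.

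**Figure D3:**
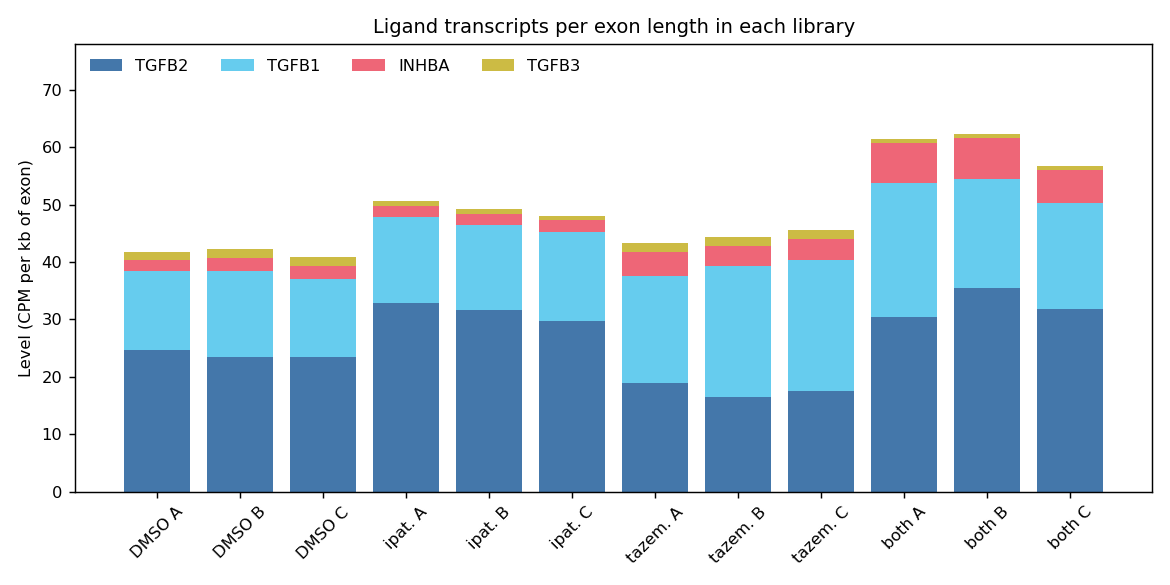
Stacked level of the 4 ligand genes (CPM per kb of exon, linear axis from 0) in each of the 12 libraries. The TGFB2 part shrinks with tazemetostat, and the INHBA part is largest in the 3 combination libraries.

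Of the receptors, TGFBR3 rose with each drug and most with both, TGFBR2 rose with ipatasertib, and TGFBR1 rose with the combination alone among the comparisons with DMSO. TGFBR3 was at 8.19, 8.09 and 9.82 CPM with DMSO, 16.4, 16.2 and 16 with ipatasertib, 11.5, 12.5 and 11.9 under tazemetostat and 23.7, 23.4 and 25.2 under both drugs. The 4 groups did not overlap. TGFBR3 rose 1.86-fold with ipatasertib (log2 ratio 0.90 ± 0.094 SE, edgeR adjusted p = 1.04e-07), 1.37-fold with tazemetostat (0.46 ± 0.097 SE, edgeR adjusted p = 0.000502) and 2.76-fold with the combination (1.47 ± 0.094 SE, edgeR adjusted p = 8.59e-12). Each neighbouring pair in the order DMSO, tazemetostat, ipatasertib, combination differed by the test (edgeR adjusted p = 0.000502, 0.000424 and 1.98e-05).

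TGFBR2, the ligand-binding kinase, was at 69.7, 70.7 and 68.8 CPM with DMSO, 89.3, 91.2 and 82.7 with ipatasertib, 74.8, 73.6 and 67.8 under tazemetostat and 73.2, 75.8 and 85.2 under both drugs. The ipatasertib libraries were above those of DMSO and tazemetostat, and library C of the combination lay within their range. It rose 1.26-fold with ipatasertib (log2 ratio 0.33 ± 0.071 SE, edgeR adjusted p = 0.000605). With the combination the value was 0.16 (95% interval 0 to 0.33, edgeR adjusted p = 0.0541). Without library A of the combination it was 0.21 (edgeR adjusted p = 0.0206), and without the A library of every group it was 0.21 (edgeR adjusted p = 0.00868). Against ipatasertib alone the combination gave -0.17 (edgeR adjusted p = 0.0621), which passed in 5 of the 12 fits that left out 1 library. Against tazemetostat alone it gave 0.12 (edgeR adjusted p = 0.202), and 0.19 without all A libraries (edgeR adjusted p = 0.0205).

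TGFBR1, the signalling kinase, was at 60.8, 64.7 and 62.6 CPM with DMSO, 58.3, 58.9 and 53.4 with ipatasertib, 73, 60.4 and 63.7 under tazemetostat and 69.5, 77.3 and 77.7 under both drugs. The ipatasertib libraries were the lowest, and library A with tazemetostat was above its partners and above library A of the combination. TGFBR1 rose 1.19-fold with the combination against DMSO (log2 ratio 0.25 ± 0.078 SE, edgeR adjusted p = 0.00714) and 1.31-fold against ipatasertib alone (edgeR adjusted p = 0.000299). Against tazemetostat alone it was 0.19 higher on the log2 scale (edgeR adjusted p = 0.0528), 0.27 higher without library A of tazemetostat (edgeR adjusted p = 0.00573), 0.24 higher without library A of the combination (edgeR adjusted p = 0.0187) and 0.32 higher without all A libraries (edgeR adjusted p = 0.000107). With ipatasertib alone it gave -0.14 (edgeR adjusted p = 0.141), and -0.18 without the A libraries (edgeR adjusted p = 0.0194). Per kb of exon with DMSO, TGFBR2 was at 14.8 CPM per kb, TGFBR1 at 9.48 and TGFBR3 at 1.24.

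SMAD7, the inhibitory SMAD, rose with ipatasertib. It was at 7.7, 7.36 and 8.22 CPM with DMSO, 11.6, 10 and 11.4 with ipatasertib, 7.13, 7.43 and 7.32 under tazemetostat and 10.3, 8.95 and 8.29 under both drugs. Ipatasertib libraries were above all DMSO and tazemetostat libraries, and the combination libraries lay between, with library A inside the ipatasertib range. The rise was 1.42-fold with ipatasertib (log2 ratio 0.51 ± 0.10 SE, edgeR adjusted p = 0.000377). The combination gave 0.25 against DMSO (95% interval -0.01 to 0.50, edgeR adjusted p = 0.06), which was 0.31 without library C of the combination (edgeR adjusted p = 0.0342), and 0.34 against tazemetostat (edgeR adjusted p = 0.0198). The latter was 0.24 without library A of the combination (edgeR adjusted p = 0.13), 0.33 without library C of tazemetostat (edgeR adjusted p = 0.0553) and 0.22 without all A libraries (edgeR adjusted p = 0.174). Against ipatasertib the combination gave -0.26 (edgeR adjusted p = 0.0551), which passed in 3 of the 12 fits that left out 1 library and without all A libraries (-0.32, edgeR adjusted p = 0.0375).

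SKIL, the SMAD co-repressor, rose with the combination only among the comparisons with DMSO. It was at 31.1, 28.3 and 27.3 CPM with DMSO, 34.2, 30.2 and 31.1 with ipatasertib, 33.6, 31.1 and 31.1 under tazemetostat and 34.1, 36.5 and 43.7 under both drugs. Library C of the combination was the highest of the 12, and library A of DMSO overlapped the ipatasertib group. SKIL rose 1.31-fold with the combination against DMSO (log2 ratio 0.39 ± 0.091 SE, edgeR adjusted p = 0.000667), while each single drug gave 0.14 (edgeR adjusted p = 0.21 with ipatasertib and 0.198 with tazemetostat). The combination was 0.25 above each single drug on the log2 scale (edgeR adjusted p = 0.0268 against ipatasertib and 0.027 against tazemetostat). Without library C of the combination these were 0.14 and 0.14 (edgeR adjusted p = 0.229 and 0.233). The first also lost its call without ipatasertib B or C (0.20 and 0.22), and the second without tazemetostat B or C (0.22 and 0.23).

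Setting the combination against the sum of the single effects asks where the drugs did not act independently on the log2 scale. Of the 9 genes, 2 departed upwards and none downwards, where 5.96% of all tested genes departed upwards and 6.01% downwards, 12% in all. Scaled to library totals, 33.6% of the genes called departed upwards, against 49.8%. For INHBA the single effects summed to 0.77 and the combination gave 1.67, an excess of 0.90 ± 0.14 SE (edgeR adjusted p = 0.000807). For TGFB2 the single effects summed to -0.04 and the combination gave 0.45, an excess of 0.49 ± 0.10 SE (edgeR adjusted p = 0.00524). Both excesses passed in each of the 12 fits that left out 1 library. TGFBR1 gave 0.33 (edgeR adjusted p = 0.0531). It gave 0.43 without library A of tazemetostat (edgeR adjusted p = 0.0038), 0.38 without library A of the combination (edgeR adjusted p = 0.0173) and 0.50 without all A libraries (edgeR adjusted p = 7.95e-05). TGFB1 gave -0.18 (edgeR adjusted p = 0.369) and -0.37 without all A libraries (edgeR adjusted p = 0.0035). For TGFBR3, which rose with each drug, the sum was 1.35 and the combination 1.47, a difference of 0.11 (95% interval -0.19 to 0.42).

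**Figure D4:**
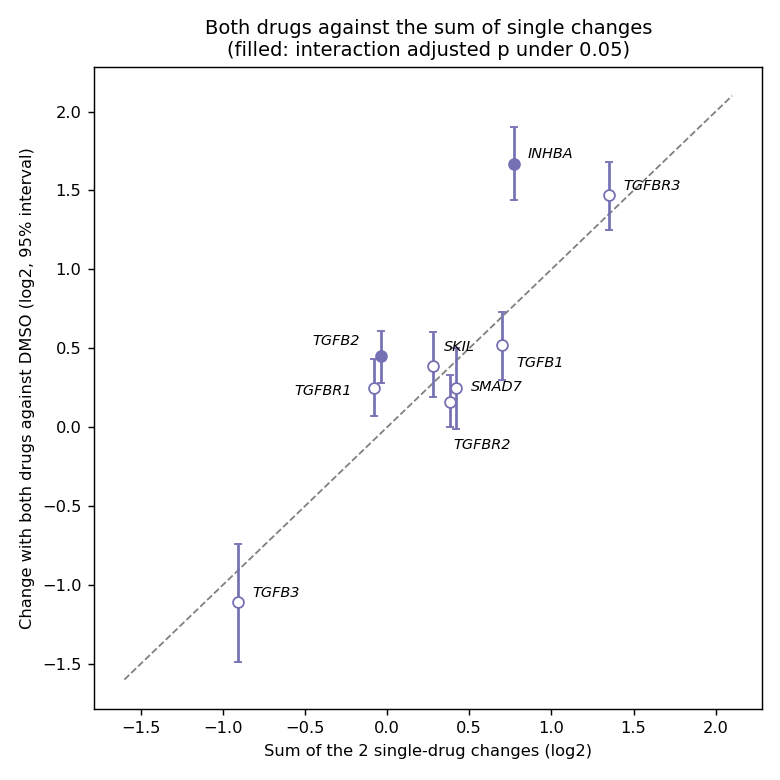
Log2 fold change with both drugs against DMSO (95% interval) plotted against the sum of the 2 single-drug changes, with the line of equality dashed. INHBA and TGFB2, filled, lie above the line and passed the interaction test.

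Adding tazemetostat to ipatasertib raised 5 of 9 genes (TGFB1, INHBA, TGFBR1, TGFBR3 and SKIL) and lowered none by the test, where 24.2% of all genes rose and 20.7% fell, 44.9% in all. Adding ipatasertib to tazemetostat raised 5 (TGFB2, INHBA, TGFBR3, SMAD7 and SKIL) and lowered TGFB3, where 23.2% rose and 23.1% fell, 46.3% in all. Set directly against each other, tazemetostat was higher than ipatasertib for 4 (TGFB1, TGFB3, INHBA and TGFBR1) and lower for 4 (TGFB2, TGFBR2, TGFBR3 and SMAD7), where 26% of all genes were higher and 22.4% lower, 48.3% in all. The TGFBR1 difference in that comparison was 0.21 (edgeR adjusted p = 0.0322). It lost its call without library A of tazemetostat (0.13, edgeR adjusted p = 0.162), without library C of tazemetostat (0.22, edgeR adjusted p = 0.0547), without library C of ipatasertib (0.16, edgeR adjusted p = 0.16), without all A libraries (0.15, edgeR adjusted p = 0.0595) and with the replicate letter as a block (0.21, edgeR adjusted p = 0.0579).

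When the groups were ordered by level, TGFBR3 was the one member with a difference that passed at each step between neighbours. The order was read from the same libraries as the tests, and the share of all genes that passed at each step was not counted. For INHBA the order was ipatasertib, DMSO, tazemetostat, combination, and the step between the first pair did not pass (edgeR adjusted p = 0.592). For TGFB2 it was tazemetostat, DMSO, ipatasertib, combination, and the last step did not pass (edgeR adjusted p = 0.601). The TGFB1 levels formed a lower pair of DMSO and ipatasertib (edgeR adjusted p = 0.425) and an upper pair of combination and tazemetostat (edgeR adjusted p = 0.464). The TGFB3 levels formed a lower pair of combination and ipatasertib (edgeR adjusted p = 0.583) and an upper pair of DMSO and tazemetostat (edgeR adjusted p = 0.742). For SKIL the step from tazemetostat up to the combination passed, and those from DMSO to ipatasertib (edgeR adjusted p = 0.21) and on to tazemetostat (edgeR adjusted p = 0.986) did not. TGFBR1, TGFBR2 and SMAD7 had no step between neighbours that passed, although their lowest and highest groups differed by the test.

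The genes whose levels ran most like each member over the 12 libraries differed from member to member, by Pearson's r of log2(CPM + 1) over 11414 genes that reached 5 CPM in a group. These values are descriptions over libraries that share 4 treatments, and the highest of many. INHBA ran closest to PMEPA1 (r = 0.992), a well-known TGF-beta target, which was at 86.7 CPM with DMSO, 83.7 with ipatasertib, 110 under tazemetostat and 130 under both drugs. TGFBR3 ran closest to PIK3IP1 (r = 0.992), a brake on PI3K, TGFB3 to GGT1 (r = 0.99), TGFB2 to C10orf46 (r = 0.983) and TGFB1 to RTN2 (r = 0.983). TGFBR1 ran closest to MAP3K2 (r = 0.983), TGFBR2 to CRKL (r = 0.971), SMAD7 to GLTSCR2 (r = 0.965) and SKIL to USP12 (r = 0.973).

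Of the SMAD genes that carry the signal, SMAD2 and SMAD3 were well expressed and SMAD4 had few reads. SMAD4 had 62 counts over the 3 DMSO libraries, 49 with ipatasertib, 63 under tazemetostat and 36 under both drugs, or 0.801 ± 0.025, 0.761 ± 0.313, 0.896 ± 0.0504 and 0.755 ± 0.378 CPM (SD, n = 3). Per kb of exon it was at 0.0899 CPM with DMSO, where SMAD3 was at 4.76. SMAD4 passed in no comparison, with log2 fold changes against DMSO of -0.13, 0.16 and -0.03. SMAD3, which binds DNA directly, rose from 34.5 ± 1.74 CPM to 65.6 ± 3.78 with ipatasertib, 58 ± 3.62 under tazemetostat and 96.1 ± 4 under both drugs (SD, n = 3), the last a log2 fold change of 1.48 ± 0.074 SE (edgeR adjusted p = 1.36e-13). SMAD2 was at 109 ± 0.92 CPM with DMSO, gave 0.02 with ipatasertib and 0.01 with tazemetostat on the log2 scale, and was 0.17 higher with the combination (edgeR adjusted p = 0.0331). In all, of 7 SMAD genes other than SMAD7, 2 rose with ipatasertib, 3 rose and 1 fell with tazemetostat, and 6 rose with the combination. Their median log2 fold change was -0.04, 0.16 and 0.35. Of all tested genes 24%, 25.9% and 34.4% rose and 23.1%, 21.3% and 30% fell in these comparisons, with medians of 0, 0.01 and 0.03, the background for this list and those that follow.

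Receptors of the wider family were higher in several comparisons. Of 10 genes, 8 were tested, and 3 rose with ipatasertib, 5 under tazemetostat and 7 under both drugs, with none lower by the test (median log2 fold change 0.18, 0.38 and 0.91). The activin receptor ACVR1B rose from 30.2 ± 1.23 to 59 ± 4.52 CPM with the combination (log2 fold change 0.97, edgeR adjusted p = 5.09e-10), and ACVR2A (0.69) and ACVR2B (0.84) rose with it. ACVR1C, a type I receptor of nodal and activin B, rose from 1.3 ± 0.304 to 4.28 ± 1.01 CPM with tazemetostat (log2 fold change 1.69, edgeR adjusted p = 8.71e-07), and ACVR1 rose by 0.40 with ipatasertib, 0.60 under tazemetostat and 1.16 under both drugs on the log2 scale. The BMP receptor gene BMPR1B rose from 1.08 ± 0.25 CPM to 2.43 ± 0.428 under tazemetostat (SD, n = 3; edgeR adjusted p = 0.000167).

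Of 13 other activin, nodal and GDF ligands, 5 were tested, and 1 rose and 1 fell with ipatasertib, 1 rose with tazemetostat (2 changed without library A of the combination or without all A libraries), and 2 rose and 1 fell with the combination. INHBB, the subunit of activin B, rose from 78.3 ± 5.38 to 114 ± 5.04 CPM with ipatasertib and to 133 ± 9.02 with the combination (log2 fold changes 0.54 and 0.77, edgeR adjusted p = 1.96e-06 and 3.64e-09), and was at 73.3 ± 1.36 with tazemetostat. GDF11 fell with ipatasertib (log2 fold change -0.64, edgeR adjusted p = 5e-05), and GDF15, a stress-induced ligand, rose from 0.35 ± 0.252 to 3.33 ± 0.647 CPM with the combination (edgeR adjusted p = 2.62e-08). Of 12 ligand traps and co-factors, 6 were tested, and 1 rose and 2 fell with ipatasertib, 4 rose with tazemetostat, and 2 rose and 1 fell with the combination. FST (follistatin), which sequesters activin, rose from 0.858 ± 0.182 CPM to 1.53 ± 0.344 with ipatasertib, 2.46 ± 0.108 under tazemetostat and 6.86 ± 0.64 under both drugs (edgeR adjusted p = 6.69e-12 for the last). BAMBI, a decoy receptor, rose with tazemetostat (0.62, edgeR adjusted p = 2.02e-07), and ENG (endoglin), a co-receptor, fell with ipatasertib (-0.76, edgeR adjusted p = 5.02e-05).

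Genes for storage and activation of latent TGF-beta gave 14 tested of 15, with 9 higher and 1 lower with ipatasertib, 6 higher and 1 lower with tazemetostat, and 9 higher with the combination. Their median log2 fold change was 0.45, 0.25 and 0.71. LTBP2, a matrix protein related to the latent TGF-beta carriers, rose from 2.95 ± 0.511 to 19.3 ± 0.998 CPM with the combination (log2 fold change 2.70, edgeR adjusted p = 1.1e-14). THBS1 (thrombospondin-1), an activator of latent TGF-beta, moved in the same directions as TGFB2 against DMSO. Unlike TGFB2, it was lower with both drugs than with ipatasertib alone by the test. It was at 118 ± 7.64 CPM with DMSO, 275 ± 32.5 with ipatasertib, 66 ± 1.18 under tazemetostat and 199 ± 6.87 under both drugs (SD, n = 3). It rose by 1.22 and fell by 0.84 on the log2 scale with the single drugs (edgeR adjusted p = 5.12e-11 and 1.32e-08). The membrane protease gene MMP14 rose from 19.7 ± 1.39 CPM to 39.4 ± 2.79 with ipatasertib and 32.7 ± 5.32 with tazemetostat (SD, n = 3), and PLAU, the urokinase gene, rose with tazemetostat (1.05) and fell with ipatasertib (-0.42).

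**Figure D5:**
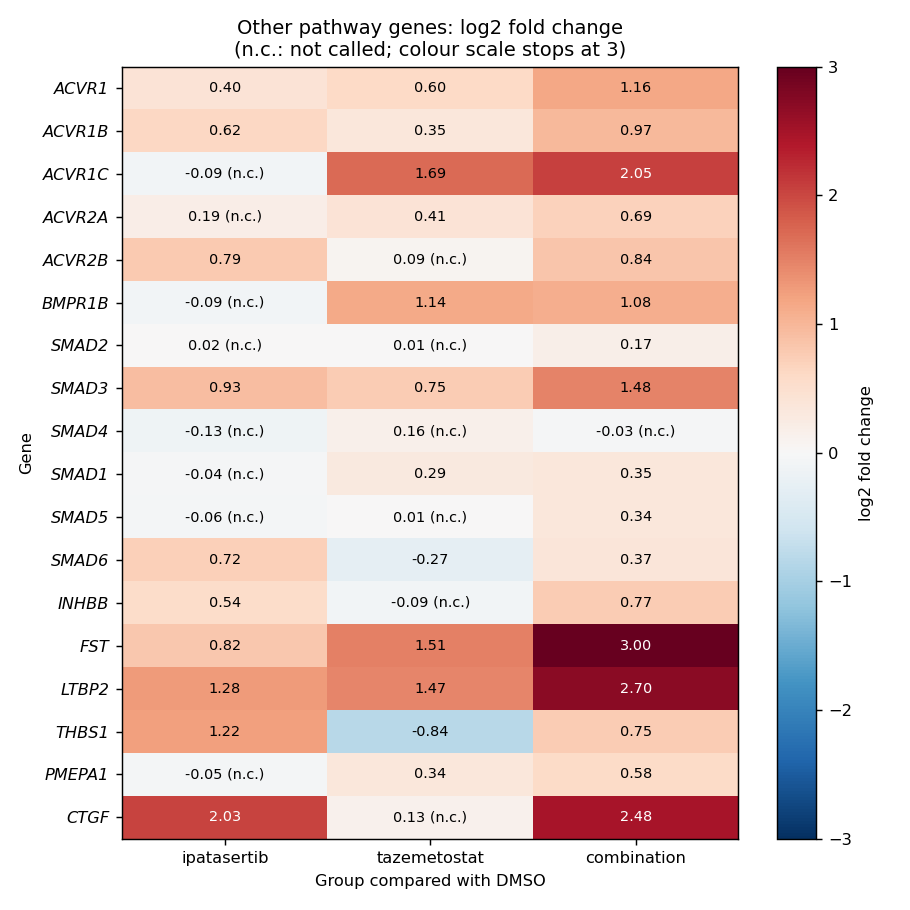
Log2 fold change against DMSO of 18 other pathway genes with each treatment, as printed number and colour, with n.c. for values that did not pass the test. SMAD3, ACVR1, FST and LTBP2 rise in all 3 columns, and SMAD4 is not called in any.

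Genes listed as raised by TGF-beta in epithelial cells were among those that changed with each treatment. Of 40 in the list, 35 were tested, and 9 rose and 9 fell with ipatasertib (median log2 fold change -0.05), 25 rose and 3 fell with tazemetostat (0.60), and 24 rose and 5 fell with the combination (0.64). The difference between these counts was not tested. The list also holds ID1 and ID3, which TGF-beta can lower in such cells, so their direction cannot be read as that of the others. ID1 fell with ipatasertib and with the combination and rose with tazemetostat, and ID3 fell with each treatment. CTGF, a matricellular growth factor gene that YAP also controls, rose with ipatasertib and was higher still with both drugs. From 23.6 ± 0.144 CPM in controls it reached 96.4 ± 2.29 under ipatasertib, 25.9 ± 1.95 under tazemetostat and 132 ± 8.13 under both. The combination was above ipatasertib alone by the test. Of the 35 tested, 6 departed upwards from the sum of the single effects and 0 downwards, where 5.96% and 6.01% of all tested genes did. The 6 were BHLHE40, CTGF, CYR61, FN1, PMEPA1 and TGFBI. PMEPA1 departed by 0.29 (edgeR adjusted p = 0.0395). CDH2 (N-cadherin) had 3 counts over the 3 DMSO libraries and was at 2.89 ± 0.37 CPM with tazemetostat (SD, n = 3). The fibroblast marker COL1A1 is also in this list.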

How the data were processed

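Poly(A) RNA-seq of 12 libraries was used, 3 in each of 4 groups taken from the treatment label. For each library the authors deposited unnormalized counts of reads by gene symbol. Per the submitters' processing notes, hg19 was the build and HTSeq, STAR, SAMtools and DESeq2 were among the tools. Versions, annotation and strand setting are not given in the sources used, so reads of overlapping or antisense genes cannot be told apart. HTSeq's summary lines, which took the rest of the reads, entered neither library sizes nor tests. Genes were filtered with filterByExpr (minimum count 10) and fitted in R 4.3.3 with edgeR 4.0.16 (TMM factors, a mean per group over 12 libraries, 8 residual degrees of freedom, robust quasi-likelihood tests, Benjamini-Hochberg adjustment over 14571 genes, threshold 0.05) for 7 comparisons. Intervals are 95% and use 8 degrees of freedom. The procedure was also run on simulated counts. Few genes changed in them and no library stood apart, so that run does not cover data like these.

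The members and lists were chosen with earlier results of these data known. All 9 members are described. From each other list, up to 4 genes with the largest change against DMSO among those that passed and reached 2 CPM in a group were eligible, besides SMAD4, SMAD2, SMAD3, ACVR1B, ACVR2A, ACVR2B, PMEPA1, CTGF and FST. Not all of these are printed, and some items are not reported here. Similar genes were the 3 of highest r, of which 1 is printed per member. The alternatives were DESeq2 1.42.0, RLE factors, unscaled library totals, no filter, 50 counts in 3 libraries, the 2 groups alone, the replicate letter as a block, a log2 bound of 0.5, each library left out, and all A libraries left out. Correlations of deviations of same-letter libraries passed the bound of 0.1 in 3 of 3 pairs for DMSO and ipatasertib (0.40, 0.13 and 0.11), where 1 of 3 matched its own letter best, and in all pairs of no other groups. The deposited table of normalized values was not used. Floors allow for counting error alone, because reads lacking molecular identifiers need not be separate molecules.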

Additional observations from a re-analysis of the deposited data

Results flagged for a closer look

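The effect of ipatasertib on INHBA differed with and without tazemetostat. It was -0.08 on the log2 scale in cells without tazemetostat and 0.82 in cells with it, and the interaction of 0.90 passed the test (edgeR adjusted p = 0.000807).

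The effect of ipatasertib on TGFB2 was 0.40 in cells without tazemetostat and 0.88 in cells with it, an interaction of 0.49 (edgeR adjusted p = 0.00524). No separate test for outlying libraries is reported for these groups of 3. Both interactions passed in each of the 12 fits that left out 1 library.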

How the results depend on the processing

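Of 1314 values of the 9 genes, 1240 kept their direction and their side of the threshold under the alternatives, 39 lost the call, 32 gained it and 3 changed sign, none of these 3 called in either fit. The sign changes were TGFBR1 with tazemetostat against DMSO (-0.03 without library A of tazemetostat, -0.04 without all A libraries, -0.04 to 0.10 over the fits with libraries left out) and TGFB2 with the combination against ipatasertib (-0.01 without library B of the combination, and -0.01 to 0.13 over the fits with libraries left out). With a log2 bound of 0.5, a stricter question by construction, the members called were 2 for ipatasertib (5 without the bound), 1 for tazemetostat (4), 3 for the combination (7), all against DMSO, 1 for the combination against ipatasertib (5), 3 for tazemetostat against ipatasertib (8) and 0 for the interaction (2). Leaving out libraries gave 5 to 6, 4 to 4, 7 to 8, 5 to 7, 4 to 8 and 7 to 8 members for the 6 pairwise comparisons in the order of the design, and 2 to 4 for the interaction, where 4 came without all A libraries; the cause was not tested. The count of all genes called for the interaction was 1744, and 674 to 3681 without 1 library, 5452 without all A libraries, 1012 with the replicate block and 13 with the bound. The other 6 counts of all genes fell to 1017, 1588, 3471, 1599, 1313 and 2043 with the bound.

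With the replicate block, 5 members were called for ipatasertib against DMSO and 2 for the interaction, as without it; the block changed 1 call, TGFBR1 for tazemetostat against ipatasertib (0.21, edgeR adjusted p = 0.0579). Library totals moved the share of higher among called genes from 54.9% to 67.9% for tazemetostat and from 49.8% to 33.6% for the interaction, and turned no member's direction. With them, TGFBR2 and SMAD7 passed for the combination against DMSO (0.22 and 0.31), and with a filter of 50 counts as well (0.18 and 0.26). SMAD7 passed for the combination against ipatasertib with RLE factors (-0.27), and TGFBR2 with no filter (-0.19) and DESeq2 (-0.18). TGFBR1 passed for the combination against tazemetostat with the filter of 50 counts (0.19), where SKIL lost its call with the 2 groups alone (0.26). TGFBR1 passed for the interaction with no filter (0.32) and DESeq2 (0.33). With the bound, 51 of 63 counts in the other lists moved by over 1.5 times or to 0. Genes listed as raised by TGF-beta went from 28 to 14 called with tazemetostat. Of 432 such counts under the alternatives that keep all libraries and no bound, 28 moved. For ipatasertib 5 wider-family receptors were called with library totals (3 otherwise). For the combination 5 traps were called with no filter and with DESeq2 (3 otherwise). For tazemetostat 2 activin, nodal and GDF ligands were called with library totals, no filter, the 2 groups alone and DESeq2, and 0 with the filter of 50 counts (1 otherwise). Of 819 such counts with libraries left out, 82 moved by over 1.5 times, and those against DMSO are given beside their lists. The lower depth of the combination libraries limits SMAD4 and other genes near 1 CPM.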

Other observations

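The BMP branch of the family, which signals through SMAD1, SMAD5 and SMAD9, changed as well. Of 18 BMP ligands, antagonists and targets 14 were tested. With ipatasertib 5 rose and 3 fell, with tazemetostat 10 rose and 3 fell, and with the combination 10 rose and 3 fell. Among those that rose were BMP1, a protease gene despite its name, with each treatment. The genes of the BMP antagonists NOG and CHRD rose with tazemetostat and with the combination, from few reads. NOG had 12 counts over the 3 DMSO libraries and CHRD 21. In the order DMSO, tazemetostat, combination, NOG was at 0.152, 0.669 and 1.48 CPM and CHRD at 0.282, 0.681 and 0.562. BMP4 rose from 8.8 ± 0.982 to 18.6 ± 1.03 CPM with ipatasertib and 28.1 ± 2.78 with the combination (SD, n = 3; edgeR adjusted p = 2.01e-08 and 3.26e-12). BMP6 was at 0.882 ± 0.139 CPM with DMSO and 5.93 ± 0.358 with the combination. ID2, a target of BMP signalling that restrains differentiation, fell with ipatasertib from 51.2 ± 3.64 to 20.7 ± 3.12 CPM (log2 fold change -1.31, edgeR adjusted p = 1.52e-08). SMAD1 rose with tazemetostat by 0.29 on the log2 scale (edgeR adjusted p = 0.000943), and SMAD6, the inhibitory SMAD of this branch, rose with ipatasertib by 0.72 (edgeR adjusted p = 2.64e-06) and fell with tazemetostat by 0.27 (edgeR adjusted p = 0.0303).

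Of 13 co-repressors, co-activators, DNA partners and anchors of SMAD proteins, 12 were tested. With ipatasertib 6 rose and 2 fell, with tazemetostat 6 rose and 4 fell, and with the combination 7 rose and 1 fell. The co-activators CREBBP and EP300 and the anchor ZFYVE9 were among those that rose with each treatment. The 10 called with tazemetostat became 6 without library C of DMSO or without library C of tazemetostat. Of all tested genes 24%, 25.9% and 34.4% rose and 23.1%, 21.3% and 30% fell with the 3 treatments. TGIF1, a co-repressor of SMAD2 and SMAD3, rose from 111 ± 5.89 to 213 ± 13.7 CPM with ipatasertib (edgeR adjusted p = 4.23e-10) and fell to 80.8 ± 4.19 with tazemetostat (edgeR adjusted p = 1.07e-05). RUNX2, a transcription factor that joins SMAD complexes, rose by 0.46, 1.12 and 1.75 on the log2 scale with ipatasertib, tazemetostat and the combination. In a list of 14 ubiquitin ligases, proteases, phosphatases and FKBP1A, 8 rose and 3 fell with ipatasertib. With tazemetostat 3 rose and 2 fell, and with the combination 6 rose and 3 fell. FKBP1A, which encodes a protein that binds type I receptors, was among those that fell with each treatment. The 5 called with tazemetostat became 3 without library B of tazemetostat and 8 without all A libraries. NEDD4L, a ligase that targets activated SMAD2 and SMAD3, rose from 38.2 ± 1.66 to 83.7 ± 3.66 CPM with the combination (edgeR adjusted p = 4.34e-12).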
